A study of Mus musculus with 6 samples.

Results

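The nuclear-encoded genes of the respiratory complexes II to V were followed in cultured mouse neural retinal progenitor cells (mNRPCs) after knockdown of Ifitm3. The members were taken by gene symbol from the deposited table of expression values. Symbols of succinate dehydrogenase (Sdha to Sdhd and the Sdhaf factors), of the cytochrome bc1 complex (Uqcr, Uqcc and Cyc1), of cytochrome c (Cycs), of cytochrome c oxidase (Cox4 to Cox8, Cox10 to Cox20) and of ATP synthase (Atp5) were included, and symbols holding "-ps", the mark of a pseudogene, were left out. This gave 67 of the 55401 rows of the table, with 66 different symbols, since Atp5o stood on 2 rows. By role, the members were 4 subunits and 4 assembly factors of complex II, 9 subunits and 3 assembly factors of complex III, cytochrome c, 19 subunits and 9 assembly factors of complex IV, and 5 genes of the F1 head and 13 of the stalk and membrane part of ATP synthase. The subunits that the mitochondrial genome encodes, and the genes of complex I, were not members.

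The mNRPCs were a line that the study's laboratory had derived from the adult mouse and kept in long-term culture on Matrigel with basic fibroblast growth factor and CHIR99021, an inhibitor of glycogen synthase kinase 3. In 3 libraries the cells carried a control siRNA (control group), and in 3 libraries an siRNA against Ifitm3, the gene of an interferon-induced membrane protein (Ifitm3 siRNA group), both delivered with Lipofectamine 3000. RNA was taken 48 h after transfection and polyadenylated RNA was sequenced. Neither the labels nor the methods say that the 3 libraries of a group came from separate cultures, so that the p-values measure the spread between libraries, which may be technical. The comparison asked which transcripts differed when Ifitm3 was reduced.

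Complex II passes electrons from succinate to ubiquinone, complex III passes them on to cytochrome c, and complex IV passes them to oxygen. Complexes III and IV pump protons across the inner mitochondrial membrane, and ATP synthase, also called complex V, uses their return to make ATP. All subunits of complex II and cytochrome c itself are made from nuclear genes, whereas complexes III, IV and V also need proteins encoded by mitochondrial DNA, and dedicated assembly factors insert their heme, copper and iron-sulfur groups. NRF1 (nuclear respiratory factor 1), the ETS factor GABPA and YY1 are known to bind promoters of many of these genes.

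The promoters of the members whose libraries differed most are shown together with that of Atp5j, in which all 3 motifs were found, and that of Cox6a1, an abundant member, so that the letters can be read beside the values. The sequences are RefSeq windows of 300 bases on GRCm38.p6, from 250 bases before to 50 bases after the annotated start, written 5′ to 3′ along the gene. Capitals mark a match to CGCATGCG (core of the NRF1 site), CCGGAAG (ETS, as bound by GABPA) or AAGATGGC (YY1), searched on both strands, so that CTTCCGG is the ETS motif on the other strand. The Cox7b window was chrX:106015450-106015749 (plus strand), that of Atp5g2 chr15:102670998-102671297 (minus), that of Uqcr10 chr11:4704295-4704594 (minus), that of Cox6a1 chr5:115348909-115349208 (minus) and that of the annotated Atp5j start with the motifs chr16:84834927-84835226 (minus).
Cox7b: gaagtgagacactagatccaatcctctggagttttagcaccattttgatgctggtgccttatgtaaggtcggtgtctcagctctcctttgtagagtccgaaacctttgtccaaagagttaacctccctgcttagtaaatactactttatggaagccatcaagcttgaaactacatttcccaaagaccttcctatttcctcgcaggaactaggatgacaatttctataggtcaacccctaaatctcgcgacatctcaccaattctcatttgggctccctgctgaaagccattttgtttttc
Atp5g2: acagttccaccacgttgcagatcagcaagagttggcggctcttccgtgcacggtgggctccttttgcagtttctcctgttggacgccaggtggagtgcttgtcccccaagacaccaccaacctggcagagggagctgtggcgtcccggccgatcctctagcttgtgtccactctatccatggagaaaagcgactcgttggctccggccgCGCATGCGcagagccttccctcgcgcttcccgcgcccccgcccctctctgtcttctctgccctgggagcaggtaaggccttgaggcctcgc
Uqcr10: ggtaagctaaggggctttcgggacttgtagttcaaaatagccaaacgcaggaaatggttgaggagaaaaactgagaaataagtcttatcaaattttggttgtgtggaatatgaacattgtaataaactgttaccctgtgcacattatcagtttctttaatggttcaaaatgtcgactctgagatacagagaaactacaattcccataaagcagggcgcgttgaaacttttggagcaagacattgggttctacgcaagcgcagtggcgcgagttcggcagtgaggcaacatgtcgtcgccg
Cox6a1: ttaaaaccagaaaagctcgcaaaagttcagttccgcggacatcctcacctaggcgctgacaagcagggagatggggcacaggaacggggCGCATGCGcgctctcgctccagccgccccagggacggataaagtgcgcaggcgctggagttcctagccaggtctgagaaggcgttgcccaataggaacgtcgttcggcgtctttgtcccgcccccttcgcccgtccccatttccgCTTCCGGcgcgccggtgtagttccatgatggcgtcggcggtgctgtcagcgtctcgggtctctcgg
Atp5j: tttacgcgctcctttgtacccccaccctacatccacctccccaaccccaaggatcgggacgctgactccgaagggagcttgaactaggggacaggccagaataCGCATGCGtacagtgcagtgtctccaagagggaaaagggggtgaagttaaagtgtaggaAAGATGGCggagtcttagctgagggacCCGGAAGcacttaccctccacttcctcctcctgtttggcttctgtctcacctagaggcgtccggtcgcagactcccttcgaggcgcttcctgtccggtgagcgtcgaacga
The windows of Cox7b and Uqcr10 held none of the 3 motifs in these letters, and that of Atp5g2 held the NRF1 core. In the Atp5j window all 3 motifs were found.

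RefSeq windows were matched for 51 of the 66 member symbols. The NRF1 core was found in 8 of them (15.7%), against 2.07% of the 27025 genes with a window and 4.51% of the 9287 of these that were expressed highly enough to be tested. These 8 were Atp5g2, Atp5j, Atp5k, Atp5l, Cox6a1, Cycs, Uqcr11 and Uqcrc1. The ETS motif was in 21 members (41.2%, against 9.93% of all genes and 21.3% of tested genes) and the YY1 motif in 6 (11.8%, against 3.19% and 5.51%). At least 1 of the 3 motifs, which do not overlap in their letters in the windows shown, was found in 27 members (52.9%), against 14.1% of all genes and 28.7% of tested genes. A match describes the letters only, and no binding was measured.

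Values are FPKM, fragments per kilobase of transcript and per fixed number of mapped fragments, which are scaled for transcript length. Between genes they can be compared only roughly, because FPKM of short transcripts depend on the fragment length and copies may share reads. The 6 libraries listed 11966 to 12274 genes at 1 FPKM or more, and their FPKM summed to 344706 to 360247. How many reads a library held is unknown. Ifitm3 itself was at 3121, 2120.2 and 2509 FPKM in control libraries 1, 2 and 3 and at 349.7, 546 and 398 FPKM in the Ifitm3 siRNA libraries, without overlap, and its log2 fold change was -2.59 (SE 0.23). With limma and Benjamini-Hochberg adjustment over 13588 genes (those whose mean reached 0.5 FPKM), its adjusted p was 0.1001. Of 10 markers of retinal progenitors, 6 reached a mean of 1 FPKM (among them Sox2, Pax6 and Six3), with a summed level of 79.6 to 119.6 FPKM in control libraries and 88.7 to 132.1 FPKM in Ifitm3 siRNA libraries. Rax and Six6, which mark the same cells, were at 0 in every library. Of 7 mesenchymal markers, 3 reached 1 FPKM, with sums of 123.8 to 184.0 FPKM in control and 80.4 to 158.2 FPKM in Ifitm3 siRNA libraries, so that the groups overlapped. Most of this sum was Col3a1, at 114 to 168 FPKM in control and 73.1 to 147 FPKM in Ifitm3 siRNA libraries. Col1a1, Col1a2, Thy1 and Dcn, of the same list, stayed at 0.38 FPKM or less. Of 4 immune markers, 1 reached 1 FPKM, the lysosomal protein gene Cd68, so that their sum was 1.64 to 2.72 FPKM in control and 3.49 to 12.79 FPKM in Ifitm3 siRNA libraries, while Ptprc, Csf1r and Aif1 stayed at 0.15 FPKM or less. The part of these marker levels in the members' values was not tested. In such bulk RNA, fewer cells of a type and less RNA per cell cannot be told apart.

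Most subunit genes of complexes II to V had slightly less RNA in the Ifitm3 siRNA group than in the control group, while assembly factors lay on both sides of 0. Of the 67 members, 61 reached the mean of 0.5 FPKM needed for a test. Their log2 fold changes, on the log2(FPKM + 0.1) scale, ranged from -0.76 (Cox7b) to 0.81 (Cox6b2), with a median of -0.14, against a median of 0.04 over all genes tested. Values below 0 were found in 47 of 61 members (77.0%), against 43.2% of all genes tested. Among the 45 tested subunits, cytochrome c included, 39 (86.7%) were below 0 with a median of -0.16, whereas 8 of the 16 assembly factors (50.0%) were below 0 with a median of 0.00. The split depended on the scaling of the libraries. With median-ratio scaling, which shifted the median of all genes to -0.01, values below 0 were found in 55 members (90.2%, against 51.5% of all genes), in 43 of the 45 subunits and in 12 of the 16 assembly factors, and with quantile normalization in 36 subunits and 11 assembly factors (50.1% of all genes). Whether subunits and assembly factors differed was not tested. The plot of fold changes by role shows the values.

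**Figure D1:**
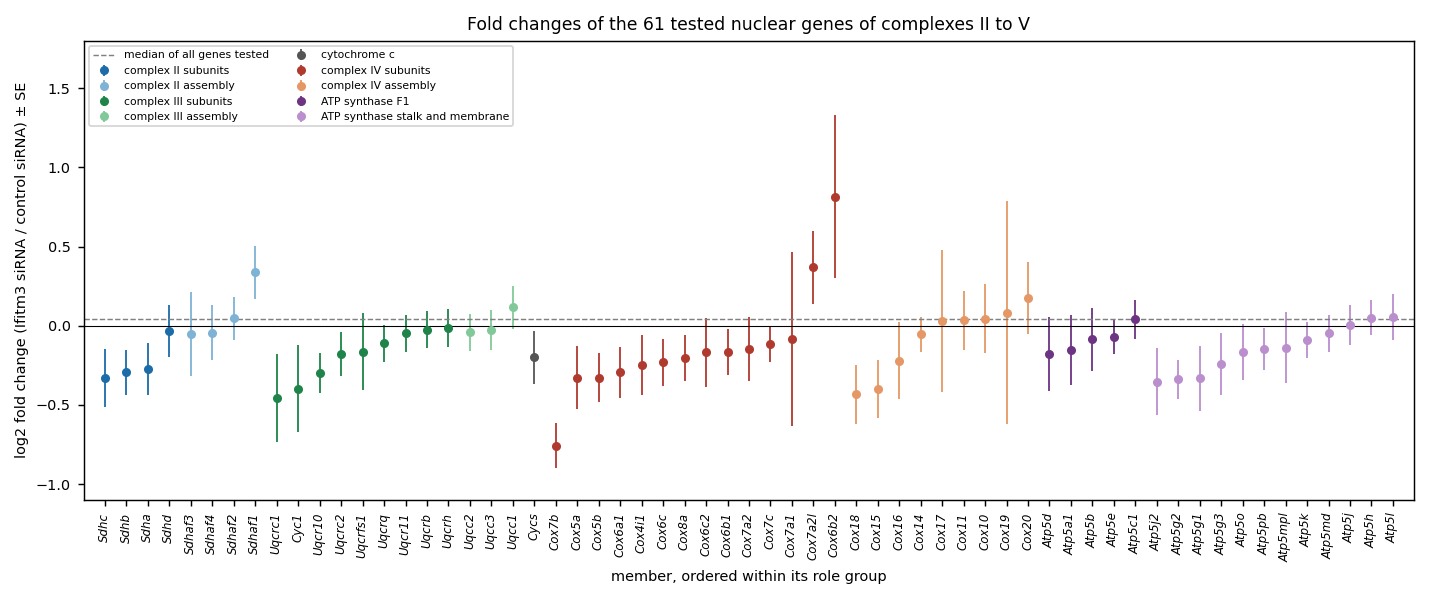
Log2 fold change (Ifitm3 siRNA over control siRNA, y axis) with its standard error for each of the 61 tested members (x axis, ordered within its role), with color for the role and a dashed line at the median of all genes tested. Points of the subunits lie mostly below 0, with Cox7b lowest at -0.76, and those of the assembly factors lie on both sides.

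Most of these differences were small against the spread between libraries. With limma, 0 of 61 members passed an adjusted p of 0.05 in either direction, against 0.00736% of all genes that were lower and 0% that were higher, and the lowest adjusted p of a member was 0.363. At the thresholds the study states, read as an absolute log2 fold change over 1 and an unadjusted p under 0.05, 0 members were lower and 0 higher, against 0.5% and 0.927% of all genes. At an unadjusted p under 0.05 alone, 3 members were lower (4.92%, against 3.37% of all genes) and 0 were higher (against 5.32%). The same 3 members, Cox7b, Atp5g2 and Uqcr10, were those whose groups did not overlap (4.92% lower, against 5.69% of all genes), and 0 members were higher in every Ifitm3 siRNA library than in every control library (against 9.96%). In this setting the shares of lower members were near those of all genes, and they depended on single libraries and on the scaling. Lower at an unadjusted p under 0.05 were 1 member without control library 1 (1.64%, against 1.78% of all genes) and 1 without Ifitm3 siRNA library 3 (1.67%, against 2.9%). It was 7 members without control library 2 (11.7%, against 4.4%) and 8 without Ifitm3 siRNA library 1 (13.1%, against 3.44%). With median-ratio scaling 7 members were lower (11.5%, against 4.82%). With a mean of at least 5 FPKM, 2 of 52 members were lower (3.85%, against 4.08%).

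Complex II, succinate dehydrogenase, had all 4 subunit genes below 0, with a median log2 fold change of -0.28. Sdhb, which encodes the iron-sulfur subunit, was at 51, 44.2 and 55.3 FPKM in control libraries 1, 2 and 3 and at 46.03, 38.8 and 37.8 FPKM in Ifitm3 siRNA libraries 1, 2 and 3. Control library 2 lay below Ifitm3 siRNA library 1, so that the groups overlapped, and the log2 fold change was -0.29 (SE 0.14), with an unadjusted p of 0.0773 and an adjusted p of 0.601 from limma. For Sdhc, a membrane anchor, the values were 57.04, 44.4 and 57.6 FPKM in control and 46.2, 33.5 and 47.3 FPKM in Ifitm3 siRNA libraries. Its log2 fold change of -0.33 (SE 0.18) rested on libraries whose ranges overlapped, with the lowest value in Ifitm3 siRNA library 2. Sdha, the flavoprotein that oxidizes succinate, was listed at 83.6, 66.4 and 85.7 FPKM in control and 71.7, 54.9 and 68.6 FPKM in Ifitm3 siRNA cells, a log2 fold change of -0.27 (SE 0.16). Sdhd, the other anchor and the most abundant of the 4 at a mean of 135 FPKM, had 142, 114 and 153 FPKM in control and 151, 119 and 129.9 FPKM in Ifitm3 siRNA libraries. The values of Sdhd were interleaved between the groups, and its log2 fold change was -0.03 (SE 0.16).

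The assembly factors of complex II were expressed at far lower levels and had a median log2 fold change of 0.00. Sdhaf1, which aids insertion of iron-sulfur clusters into SDHB, was at 3.61, 2.97 and 3.99 FPKM in control and 4.83, 4.74 and 3.84 FPKM in Ifitm3 siRNA libraries. Its groups overlapped in part, the log2 fold change was 0.34 (SE 0.17), and the unadjusted p from limma was 0.0863, the smallest of any member with a value above 0. Sdhaf4, an SDHA chaperone, had 10.8, 10.5 and 8.14 FPKM in control and 8.2, 11.08 and 9.28 FPKM in Ifitm3 siRNA libraries, and Sdhaf2, which is needed to attach the flavin to SDHA, had 3.27, 3.79 and 3.5 against 3.67, 3.87 and 3.37 FPKM. Neither showed a difference beyond the spread, with log2 fold changes of -0.04 (SE 0.17) and 0.05 (SE 0.13). Sdhaf3 had a mean of only 0.683 FPKM.

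In complex III, all 9 subunit genes had a log2 fold change below 0, from -0.46 (Uqcrc1) to -0.01 (Uqcrh), with a median of -0.16. Uqcr10 (ENSMUSG00000059534), a small subunit of the bc1 complex and the most abundant of the 9 at a mean of 139 FPKM, was at 156, 141 and 164 FPKM in control libraries 1, 2 and 3 and at 134, 119 and 122 FPKM in Ifitm3 siRNA libraries 1, 2 and 3. Every control library was above every Ifitm3 siRNA library, with group means of 154 ± 12.02 and 125 ± 8.22 FPKM (SD, n = 3). The log2 fold change was -0.30 (SE 0.12), with an unadjusted p of 0.0483 and an adjusted p of 0.573 from limma. Without control library 1 or 3, or without Ifitm3 siRNA library 2 or 3, the unadjusted p was above 0.05 (0.124, 0.152, 0.105 and 0.121).

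The core protein gene Uqcrc1 had the lowest log2 fold change of the complex, at 59.8, 44.1 and 74.5 FPKM in control and 54.1, 29.9 and 46.9 FPKM in Ifitm3 siRNA libraries. Replicate 2 was the lowest library in both groups, the groups overlapped, and the log2 fold change of -0.46 (SE 0.28) had an unadjusted p of 0.147 from limma. Cyc1, the cytochrome c1 subunit, had the same order of libraries within each group, with 72.5, 56.3 and 93.98 FPKM in control and 73.6, 40.4 and 56.5 FPKM in Ifitm3 siRNA cells. The Rieske iron-sulfur protein gene Uqcrfs1 did so too, at 74.7, 54.02 and 86.1 against 79.96, 48.4 and 63.9 FPKM. Their log2 fold changes were -0.40 (SE 0.27) and -0.16 (SE 0.24), both with a difference between the groups within the spread of the libraries. Uqcrc2, the other core protein gene, was at -0.18 on the log2 fold change scale, and the small subunits Uqcrq, Uqcr11, Uqcrb and Uqcrh lay between -0.11 and -0.01.

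The complex III assembly factors Uqcc1, Uqcc2 and Uqcc3, which act in the synthesis and stabilization of cytochrome b, were near 0. Uqcc2, the most abundant, was at 85.2, 94.4 and 85.8 FPKM in control and 79.7, 90.8 and 87.5 FPKM in Ifitm3 siRNA libraries, and Uqcc1 at 5.35, 5.58 and 6.58 against 6.7, 5.85 and 6.4 FPKM. The groups overlapped for both, with log2 fold changes of -0.04 (SE 0.12) and 0.12 (SE 0.13). Cycs, the gene of cytochrome c, the mobile electron carrier between complexes III and IV, was at 39.6, 46.7 and 44.03 FPKM in control and 46.9, 35.3 and 32.4 FPKM in Ifitm3 siRNA libraries. Ifitm3 siRNA library 1 was the highest of all 6 and library 3 the lowest, and the log2 fold change was -0.20 (SE 0.17), with an adjusted p of 0.746 from limma.

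Complex IV held the member with the clearest difference. Cox7b (ENSMUSG00000031231), a small nuclear-encoded subunit of cytochrome c oxidase on the X chromosome, was at 103, 92.8 and 118 FPKM in control libraries 1, 2 and 3 and at 69.3, 58.9 and 57.1 FPKM in Ifitm3 siRNA libraries 1, 2 and 3. The groups were far from overlapping, with means of 105 ± 12.5 and 61.8 ± 6.57 FPKM (SD, n = 3), so that the Ifitm3 siRNA mean was 59.1% of the control mean. The log2 fold change was -0.76 (SE 0.14), with an unadjusted p of 0.00134 from limma. Over the 13588 genes tested the adjusted p was 0.363, so that Cox7b did not pass the adjusted threshold either. An exact permutation test of 3 against 3 libraries cannot give a two-sided p under 0.1. In each of the 16 alternative settings of the analysis the unadjusted p stayed under 0.05, with log2 fold changes from -0.84 to -0.67.

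**Figure D2:**
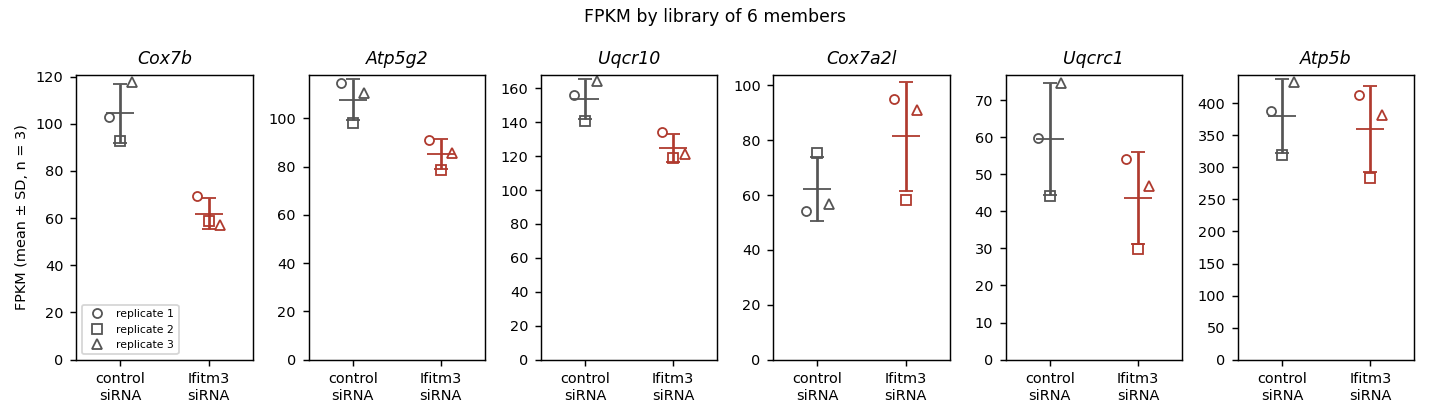
FPKM (y axis, from 0) in each library of the control and the Ifitm3 siRNA group for 6 members, with circles, squares and triangles for replicates 1, 2 and 3 and bars for the mean ± SD (n = 3). The groups of Cox7b, Atp5g2 and Uqcr10 do not overlap, while those of Cox7a2l, Uqcrc1 and Atp5b do, with replicate 2 lowest in its own group for Uqcrc1 and Atp5b.

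Of the 14 tested complex IV subunits, 12 had a log2 fold change below 0, and the median was -0.19. Cox5b, which encodes a zinc-binding subunit, was at 70.7, 54.8 and 67.8 FPKM in control and 58.3, 45.8 and 49.7 FPKM in Ifitm3 siRNA libraries, and Cox5a, another nuclear-encoded subunit, at 54.7, 43.8 and 57.5 against 51.3, 32.6 and 41.5 FPKM. The ranges overlapped for both, with log2 fold changes of -0.33 (SE 0.15) and -0.33 (SE 0.20) and unadjusted p-values of 0.0734 and 0.144 from limma. A row named Cox5b-ps, outside the member rule, was listed at 40.7, 36.4 and 43.3 FPKM in control and 31.98, 28.3 and 27.4 FPKM in Ifitm3 siRNA libraries. Such a high level of a copy leaves the division of reads between Cox5b and its copy uncertain, and the value of Cox5b with it. Cox6b1, the most abundant complex IV gene at a mean of 352 FPKM, was at 366, 326 and 427 FPKM in control and 339, 314 and 341 FPKM in Ifitm3 siRNA libraries. Its 3 Ifitm3 siRNA values lay within or just below the control range, and the log2 fold change was -0.16 (SE 0.15).

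Several complex IV subunits have isoforms that are known from heart, skeletal muscle, lung or testis, and the mNRPCs used the general isoforms almost alone. Cox4i1 was at 172, 123 and 193 FPKM in control and 143, 130.2 and 132 FPKM in Ifitm3 siRNA libraries, whereas Cox4i2 was at 0.2, 0.13 and 0.12 and 0, 0 and 0.3 FPKM. Likewise Cox6a1 was at 240.2, 205 and 262 and 214, 165 and 197 FPKM and its heart and muscle isoform Cox6a2 at 0.03, 0.13 and 0.29 and 0, 0 and 0.14 FPKM. Cox4i1 and Cox6a1 thus held at least 99.9% of the FPKM of their pairs in each group on average, and their log2 fold changes were -0.25 (SE 0.19) and -0.29 (SE 0.16), with overlapping groups. The testis isoform Cox6b2, at 0.19, 0.73 and 0.21 FPKM in control and 0.42, 0.74 and 0.83 FPKM in Ifitm3 siRNA libraries, took 0.108% and 0.201% of the Cox6b pair. Cox6b2 had the highest log2 fold change of all members at 0.81 (SE 0.52), from values under 1 FPKM that overlapped between groups.

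Cox8a, at 244, 210.0 and 254 FPKM in control and 225, 181 and 209 FPKM in Ifitm3 siRNA libraries, was the only Cox8 isoform with a value above 0. Its relatives Cox8b and Cox8c, Cox7b2 and the second row of Atp5o were listed at 0 in every library. For Cox8a the groups overlapped, with a log2 fold change of -0.20 (SE 0.15). Of the markers of striated muscle, Ckm, Myh7 and Myog were at 0 in every library, and of those of germ cells Tnp1 was at 0, while the muscle actin gene Acta1 was at 0.05 to 0.09 FPKM and the germ cell gene Ddx4 at 0.07 to 0.25 FPKM. Desmin (Des) and the protamine gene Prm1 were above 0 in some libraries, at up to 0.05 and 0.29 FPKM. The part of such cells in the low muscle and testis isoforms was not tested.

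The COX7A family was shared between Cox7a2 and Cox7a2l. Cox7a2l, whose protein takes part in joining complexes III and IV into supercomplexes, was at 54.2, 75.5 and 56.8 FPKM in control libraries 1, 2 and 3 and at 94.9, 58.3 and 90.9 FPKM in Ifitm3 siRNA libraries 1, 2 and 3. Ifitm3 siRNA libraries 1 and 3 were above all control libraries, and library 2 was not. The log2 fold change was 0.37 (SE 0.23), with an unadjusted p of 0.155 and an adjusted p of 0.675 from limma. Without Ifitm3 siRNA library 2 it was 0.59 with an unadjusted p of 0.01797, and without both replicate 2 libraries 0.74 with an unadjusted p of 0.00159, so that a replicate 2 library decided its side of that threshold. Cox7a2 was at 74.7, 62.8 and 81.01 FPKM in control and 62.6, 52.9 and 84.8 FPKM in Ifitm3 siRNA cells, and the heart and muscle form Cox7a1 at 2.33, 5.05 and 2.88 and 1.28, 5.55 and 3.93 FPKM. The share of Cox7a2l in the summed FPKM of the family was 44.8 ± 6.84% in control and 53.4 ± 5.49% in Ifitm3 siRNA libraries (SD, n = 3), and in single libraries 41.3, 52.7 and 40.4% and 59.8, 49.96 and 50.6%. Control library 2 lay among the Ifitm3 siRNA libraries. Cox7a1 had its highest level in replicate 2 in both groups.

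**Figure D3:**
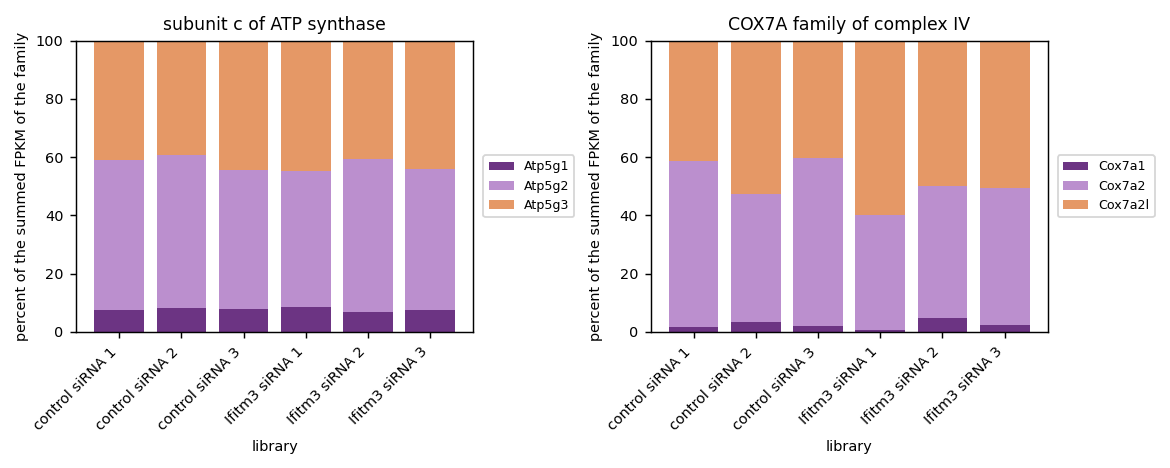
Share of each gene (y axis, percent) in the summed FPKM of its family in each of the 6 libraries (x axis), for subunit c of ATP synthase and for the COX7A family of complex IV. The shares of subunit c genes are nearly level over the libraries, while that of Cox7a2l runs from 40.4% in control library 3 to 59.8% in Ifitm3 siRNA library 1.

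The 9 assembly factors of complex IV had a median log2 fold change of 0.03, with 4 of 9 below 0. Cox18, which inserts a part of the mitochondrially encoded subunit COX2 into the membrane, was at 4.05, 3.79 and 2.8 FPKM in control and 2.86, 2.63 and 2.25 FPKM in Ifitm3 siRNA libraries. Cox15, an enzyme of heme A synthesis, was at 8.81, 6.35 and 8.63 FPKM in control and 6.38, 4.96 and 6.58 FPKM in Ifitm3 siRNA libraries. The groups overlapped for each gene, the log2 fold changes were -0.43 (SE 0.19) and -0.40 (SE 0.18), and the unadjusted p-values from limma were 0.0568 and 0.0698. Cox10, which acts in heme A synthesis before Cox15, had a value of 0.05. Cox20, a chaperone of COX2 and the most abundant factor, had 14.1, 20.9 and 12.9 FPKM in control and 15.7, 21.99 and 15.96 FPKM in Ifitm3 siRNA libraries, and a log2 fold change of 0.18 (SE 0.23).

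Cox19, which belongs to the copper delivery factors of complex IV, had the widest spread of the factors. It was listed at 5.11, 4.66 and 1.15 FPKM in control and 1.34, 4.89 and 5.01 FPKM in Ifitm3 siRNA libraries. A single library in each group, control 3 and Ifitm3 siRNA 1, was far below the rest, and the log2 fold change of 0.08 (SE 0.70) turned to -0.58 without control library 3. The copper chaperone Cox17 had values from 3.22 to 9.75 FPKM with a log2 fold change of 0.03 (SE 0.45), and Cox11, Cox14 and Cox16 lay between -0.22 and 0.03.

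In ATP synthase, 13 of the 17 tested genes had a log2 fold change below 0, with a median of -0.14. The F1 head, where ATP is made, was among the groups with the smallest differences (median -0.09, 4 of 5 below 0). Atp5b, the catalytic beta subunit and the most abundant member of all at a mean of 370.0 FPKM, was at 389, 319 and 432 FPKM in control and 414, 284 and 382 FPKM in Ifitm3 siRNA libraries. Atp5a1, the alpha subunit, was at 139.7, 117 and 156 FPKM in control and 159.8, 94.1 and 123 FPKM in Ifitm3 siRNA libraries. For both, as for the delta subunit gene Atp5d at 101, 79.05 and 115 and 104, 63.2 and 96.7 FPKM, replicate 2 was the lowest library in each group. The log2 fold changes were -0.09 (SE 0.20), -0.16 (SE 0.22) and -0.18 (SE 0.23), each with overlapping groups, and without Ifitm3 siRNA library 2 they became 0.077, 0.036 and 0.043. The gamma subunit gene Atp5c1 had a value of 0.04 and the epsilon subunit gene Atp5e of -0.07.

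Subunit c, which forms the rotating ring in the membrane, is made from Atp5g1, Atp5g2 and Atp5g3, whose mature proteins are the same. Atp5g2 (ENSMUSG00000062683) was at 115, 98.3 and 110.4 FPKM in control libraries 1, 2 and 3 and at 91.1, 78.7 and 85.7 FPKM in Ifitm3 siRNA libraries 1, 2 and 3. Every control library was above every Ifitm3 siRNA library, with means of 108 ± 8.51 and 85.2 ± 6.22 FPKM (SD, n = 3). The log2 fold change was -0.34 (SE 0.12), with an unadjusted p of 0.0305 and an adjusted p of 0.542 from limma. Without control library 1 or 3, or Ifitm3 siRNA library 2 or 3, the unadjusted p was 0.104, 0.0887, 0.0778 and 0.0706.

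The companions of Atp5g2 lay in the same direction with overlapping groups. Atp5g3 was at 91.7, 73.3 and 102 FPKM in control and 87.8, 60.4 and 78.8 FPKM in Ifitm3 siRNA libraries, and Atp5g1 at 16.9, 15.04 and 18.4 and 16.9, 10.1 and 13.7 FPKM, with log2 fold changes of -0.24 (SE 0.19) and -0.33 (SE 0.20). Together the 3 genes summed to 214 ± 23.8 FPKM in control and 174 ± 23.6 FPKM in Ifitm3 siRNA libraries (SD, n = 3). Atp5g2 supplied 50.6 ± 2.56% of that sum in control and 49.1 ± 3.24% in Ifitm3 siRNA libraries, a difference within the spread. Atp5g1, the least abundant of the 3, supplied 7.87% and 7.70%.

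Among the other genes of the stalk and the membrane part, Atp5o, the oligomycin sensitivity conferring protein and the most abundant of this group, was at 147, 106 and 147 FPKM in control and 132, 104 and 118 FPKM in Ifitm3 siRNA libraries, a log2 fold change of -0.17 (SE 0.18). Atp5j2, which encodes subunit f, was at 29.03, 38.03 and 42.04 FPKM in control and 30.7, 33.1 and 21.9 FPKM in Ifitm3 siRNA libraries, with overlapping groups and a log2 fold change of -0.35 (SE 0.21). The remaining genes, Atp5pb, Atp5k, Atp5mpl, Atp5h, Atp5md, Atp5l and Atp5j, lay between -0.15 and 0.05. For Atp5pb, the peripheral stalk subunit b, a row named Atp5pb-ps was listed at 18.9, 13.2 and 21.9 FPKM in control and 15.6, 13.96 and 16.01 FPKM in Ifitm3 siRNA libraries, so that its reads too may be divided with a copy.

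Summed over a complex, the subunit genes gave the same picture of small differences. The 19 complex IV subunits summed to 1488, 1311 and 1641 FPKM in control libraries 1, 2 and 3 and 1358, 1148 and 1312 FPKM in Ifitm3 siRNA libraries 1, 2 and 3. Means were 1479.8 ± 165 and 1273 ± 110.1 FPKM (SD, n = 3), so that the Ifitm3 siRNA mean was 86% of control, with overlapping groups. For complex II and complex III subunits this share was 88.4% and 88.6%, for the stalk and membrane part of ATP synthase 89.8% and for its F1 head 94.6%. All members together took 4365 ± 425 FPKM in control and 3903 ± 349 FPKM in Ifitm3 siRNA libraries (SD, n = 3). This was 1.24% and 1.12% of the FPKM of all genes.

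**Figure D4:**
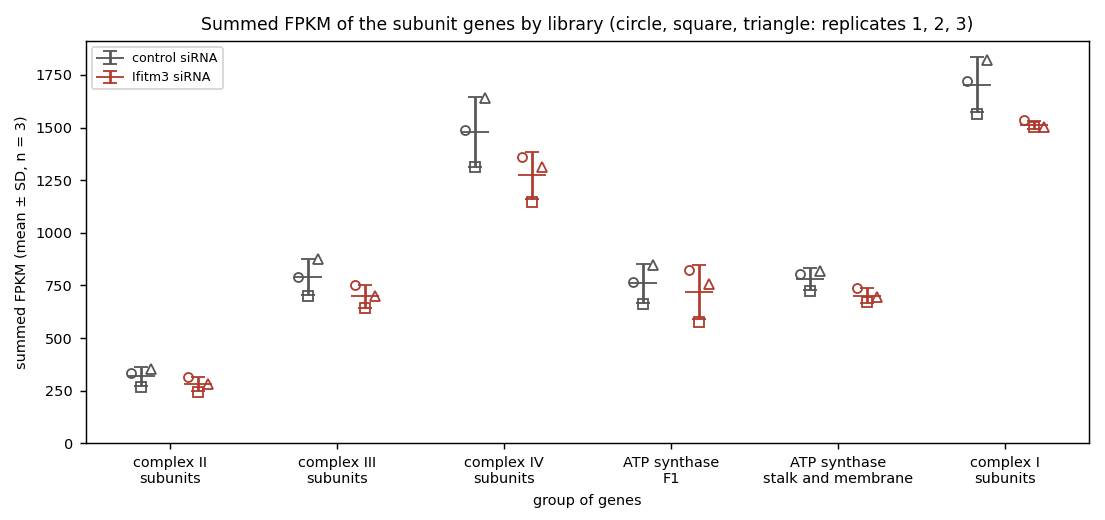
Summed FPKM (y axis, from 0) of the subunit genes of each complex by library, with circles, squares and triangles for replicates 1, 2 and 3 and the mean ± SD (n = 3) for each group. The groups overlap for complexes II to V, with replicate 2 lowest in each, and do not overlap for complex I.

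A pattern in single libraries ran through many members, mostly subunits, in both groups. In 26 of 61 members (42.6%) replicate 2 was the lowest library of both the control and the Ifitm3 siRNA group, against 25.7% of all genes tested. This was so for 24 of the 45 subunits (53.3%) and for 2 of the 16 assembly factors (12.5%). The pattern was not particular to the members, since 20 of the 38 tested complex I genes (52.6%) had it too. In the control group alone replicate 2 was the lowest in 33 members (54.1%, against 42.7% of all genes) and in the Ifitm3 siRNA group in 30 (49.2%, against 38.8%). In 7 of 61 members replicate 2 was the highest library of both groups (against 21.5% of all genes). These were 2 of the 45 subunits and 5 of the 16 assembly factors. The members' median deviation from their mean over the 6 libraries was 0.08, -0.03 and 0.18 in control libraries 1, 2 and 3 and -0.01, -0.14 and -0.05 in Ifitm3 siRNA libraries 1, 2 and 3, on the log2 scale. Control library 2 was thus close to Ifitm3 siRNA libraries 1 and 3. In a principal component analysis of the 61 members, which ranks directions of difference between libraries, the first component held 58.8% of the variance. Control library 2 and Ifitm3 siRNA libraries 2 and 3 lay on its positive side (1.32, 2.44 and 0.82). Control libraries 1 and 3 and Ifitm3 siRNA library 1 were negative (-0.83, -2.37 and -1.38). The second component, on which the groups did not overlap, held 16.3%. Over all genes tested the first component held 37.3%. The part of the libraries in the differences between the groups was not tested beyond leaving libraries out, other scalings and the replicate number as a block.

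**Figure D5:**
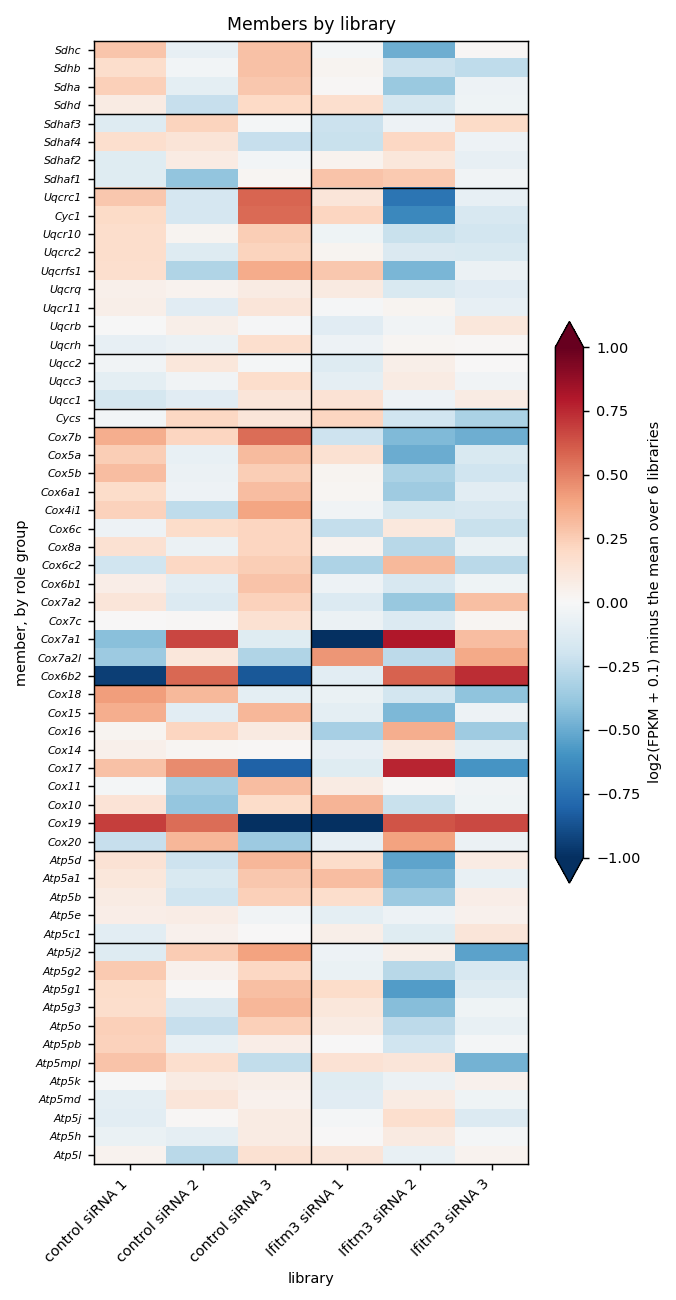
Log2(FPKM + 0.1) minus the mean over the 6 libraries (color, limited to -1 and 1) for the 61 tested members (rows, by role) in each library (columns), with a line between the groups. Control libraries 1 and 3 are above the mean for most subunits and Ifitm3 siRNA library 2 is below it, while the assembly factors follow no common order.

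Without both replicate 2 libraries, 51 of 60 tested members were below 0 with a median of -0.12. Over all single libraries left out in turn, 41 to 49 of the 60 or 61 tested members were below 0 and the median ran from -0.15 to -0.09. The share of all genes below 0 was not taken in these settings.

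Complex I, which takes electrons from NADH, was the nearest set of genes for a comparison. Of its 40 rows 38 were tested, 32 (84.2%) had a log2 fold change below 0, and the median was -0.16. At an unadjusted p under 0.05, 5 complex I genes were lower (13.2%, against 3.37% of all genes), and 10 did not overlap between the groups (26.3%, against 5.69%). Ndufb5, an accessory subunit, had the smallest p of these, at 13.02, 10.1 and 14.4 FPKM in control and 8.75, 7.34 and 8.38 FPKM in Ifitm3 siRNA libraries, with a log2 fold change of -0.60 (SE 0.16) and an unadjusted p of 0.00875 from limma. The complex I genes summed to 1721, 1563 and 1822 FPKM in control and 1534, 1501 and 1500.5 FPKM in Ifitm3 siRNA libraries, without overlap. Whether complexes II to V differed from complex I was not tested.

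The mitochondrially encoded partners of the members had a median log2 fold change of -0.04, with 4 of 6 below 0. The 6 genes mt-Cytb, mt-Co1, mt-Co2, mt-Co3, mt-Atp6 and mt-Atp8 summed to 27377, 28382 and 27308 FPKM in control and 25176, 34375 and 22602 FPKM in Ifitm3 siRNA libraries, with the highest sum in Ifitm3 siRNA library 2, where the nuclear members were lowest. For mt-Cytb, the central subunit of complex III, the groups did not overlap, at 3682, 3729 and 3647 FPKM in control and 2965, 3524 and 2319 FPKM in Ifitm3 siRNA libraries, with a log2 fold change of -0.35 (SE 0.21) and an unadjusted p of 0.135 from limma.

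Factors outside the member rule that serve the same complexes lay on both sides of 0. Of 20 further genes of complex IV, 19 assembly and translation factors and the subunit gene Ndufa4, which its symbol also puts among the complex I genes counted above, 12 had a log2 fold change below 0 (median -0.06; without Ndufa4 11 of 19, median -0.05). Of the 20, 1 (5%, against 3.37% of all genes), the copper-binding factor gene Cmc1, was lower at an unadjusted p under 0.05, and 1 was lower and 1 higher without overlap (5% each, against 5.69% and 9.96%). Cmc1 was at 4.99, 6.25 and 5.57 FPKM in control and 4.42, 4.45 and 3.8 FPKM in Ifitm3 siRNA libraries, without overlap, with a log2 fold change of -0.40 (SE 0.14) and an adjusted p of 0.537 from limma. Sco1, which delivers copper to complex IV, did not overlap in the other direction, at 2.26, 2.23 and 2.61 and 3.08, 2.99 and 2.66 FPKM. Ttc19, a complex III factor, was at 5.62, 6.4 and 5.5 FPKM in control and 5.01, 5.02 and 4.85 FPKM in Ifitm3 siRNA libraries, and Atpaf2, an assembly factor of the F1 head, at 10.6, 11.01 and 10.1 and 12.5, 13.6 and 12.03 FPKM. Their groups did not overlap, Ttc19 being lower and Atpaf2 higher, with log2 fold changes of -0.23 (SE 0.12) and 0.27 (SE 0.11) and unadjusted p-values of 0.102 and 0.0513 from limma.

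The 3 carriers that supply ATP synthase with phosphate and exchange ADP for ATP, Slc25a3, Slc25a4 and Slc25a5, all had values below 0, the lowest being -0.42 (SE 0.30) for Slc25a5, and replicate 2 was their lowest library in both groups. Of 10 transcription factors and coactivators of these genes, 9 were tested, with 4 below 0 (44.4%, against 43.2% of all genes) and 5 above. With limma 0 of the 9 passed an unadjusted p of 0.05, against 3.37% of all genes lower and 5.32% higher. So few genes cannot show a difference from these shares. Nrf1, whose motif was searched above, was at 1.91, 2.3 and 2.32 FPKM in control and 2.09, 1.75 and 1.86 FPKM in Ifitm3 siRNA libraries, a log2 fold change of -0.19 (SE 0.16). Tfb2m, a factor of mitochondrial transcription, had the smallest p of the 10, at 3.41, 3.79 and 3.82 FPKM in control and 5.05, 5.53 and 3.73 FPKM in Ifitm3 siRNA libraries, with overlapping groups and a log2 fold change of 0.35 (SE 0.18). The coactivator gene Ppargc1a was at 0.02 FPKM or less in every library.

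The Ifitm3 siRNA itself was compared with the transcripts of the members, because siRNA seeds are known to act on transcripts with matching sites. Its antisense strand, taken from the study's list of oligonucleotides, is shown with the seed (bases 2 to 8) in capitals.
Ifitm3 siRNA antisense strand: aUGUUGAUcacaguaguuc
No transcript of the 67 members was closer to full complementarity than 6 mismatches, which was reached by 9 members. The 7-base seed site ATCAACA was found in the longest annotated 3′ UTR of 3 of 60 members (5.00%; Sdha, Sdhaf2 and Sdhaf3), against 8.03% of 11182 genes tested. Cox7b, Atp5g2 and Uqcr10 had no such site. The seed search covered only this strand and the longest annotated 3′ UTR of each gene. The sense strand and the control siRNA were not searched, and an effect of either siRNA through its seed was not tested.

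Across the 61 tested members, the Spearman correlation of mean FPKM with the length of the longest annotated transcript was -0.35, and that of the log2 fold change with this length was -0.05. The log2 fold change and the mean FPKM had a correlation of -0.27. These are descriptions across genes that share their libraries. Of the 61, 15 had a longest transcript under 700 nt, as have Uqcr10 (510 nt) and Cox6a1 (620 nt), and effective lengths of such short transcripts weigh heavily in their FPKM.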

How the data were processed

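The authors deposited 1 table of FPKM per gene and library, rounded to 2 decimals. Per the labels, polyadenylated RNA was used and the second strand was marked with dUTP. Tools listed by the submitters are cutadapt 1.9, HISAT2 2.0.4 and StringTie 1.3.4d. They list the human build hg18, although 99.5% of the identifiers belong to the mouse annotation GENCODE vM21 (GRCm38). Which annotation was used is not given in these sources. The unit was inferred from the values and the tools. Reads per library are unknown, and no counting error can be given. FPKM of short transcripts depend on the fragment length, and copies of a gene may share reads.

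Values were taken as log2(FPKM + 0.1), which understates the change of low genes. Genes whose mean over the 6 libraries reached 0.5 FPKM (13588) entered a two-sided limma test (version 3.58.1, R 4.3.3) on condition alone, moderated with a trend on the mean, and p-values were adjusted over all of them by the Benjamini-Hochberg method. The fit was tested on simulated data. Promoters and the siRNA were searched with Python 3.11.15.

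Members named with all values are those with an unadjusted p under 0.05, the most abundant and the 2 with the smallest p of each role, and isoform pairs. Cox19, Cyc1, Uqcrfs1 and Sdha were chosen after their values were seen, as were Cox17 and the members given by their fold change alone. Of each other list, up to 4 genes with the smallest p could be named. The members and all lists were chosen with earlier results of these data known. Alternatives were another pseudocount, filter, scaling or trend, a replicate block, and leaving out libraries.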

Additional observations from a re-analysis of the deposited data

How the results depend on the processing

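In 16 alternative settings the median log2 fold change of the members stayed below 0, from -0.19 with median-ratio scaling to -0.09 without control library 3. Of the 52 to 63 members tested in a setting, 41 to 55 were below 0. In each setting 0 members passed an adjusted p of 0.05 (limma) or the thresholds of the study. The count of members at an unadjusted p under 0.05 was 3 in the analysis as reported (all lower, 4.92%, against 3.37% of all genes). It was 7 after scaling by median ratios (all lower, 11.5%, against 4.82%) and 5 after quantile normalization (all lower, 8.2%, against 4.45%). With a mean of at least 5 FPKM it was 2 of 52 (all lower, 3.85%, against 4.08%). It was also 2 without the trend (all lower, 3.28%, against 3.08%) and 2 without a filter (all lower, 3.17%, against 2.29%). Without both replicate 2 libraries it was 8, with 7 lower (11.7%, against 4.36%) and 1 higher (1.67%, against 5.93%). It was 1 to 8 when single libraries were left out (1.64 to 13.1% lower, against 1.78 to 4.4% of all genes). Over all genes this count was 1181 of 13588 tested as reported (3.37% lower and 5.32% higher). With a mean of at least 5 FPKM it was 658, but of only 7383 genes tested (4.08% lower and 4.84% higher). When single libraries were left out it was 730 to 1486. The number of genes past the adjusted p was 1 as reported, 0 with a mean of at least 5 FPKM, 0 without both replicate 2 libraries, and 0 to 3 when single libraries were left out. The cause of these shifts was not tested. Cox7b kept an unadjusted p under 0.05 in all 16 settings, Atp5g2 in 12 and Uqcr10 in 9.

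Neither the labels nor the methods say whether the replicate numbers pair the libraries, and 3 libraries per group cannot decide it. The deviations of same-numbered libraries from their group means correlated at 0.07, 0.43 and 0.03 over genes. Only the replicate 2 libraries correlated best with their own number. Over the 61 members these correlations were 0.11, 0.72 and -0.11. With the replicate number as a block, 11 members had an unadjusted p under 0.05, all lower (18%, against 4.68% of all genes that were lower), 0 members passed the adjusted p, and 0 of all genes did.

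Of the 37 member fold changes followed, 26 kept their sign in each setting in which they were tested (11 for Cox6b2, 15 or 16 for the others, since a filter could remove a low gene). The others, all near 0 or of wide spread, ranged as follows when single libraries were left out: Atp5a1 -0.35 to 0.036, Atp5b -0.21 to 0.077, Atp5d -0.33 to 0.043, Cox7a1 -0.50 to 0.51, Cox7a2 -0.33 to 0.0089, Sdhaf2 -0.0043 to 0.099, Sdhaf4 -0.17 to 0.058, Sdhd -0.16 to 0.056, Uqcc2 -0.081 to 0.013, Cox19 -0.58 to 0.68 and Uqcrfs1 -0.35 to 0.024. With quantile normalization Sdhaf2 was at -0.031, Sdhd at 0.0023 and Uqcc2 at 0.014, and with median-ratio scaling Sdhaf2 was at -0.0095.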

Other observations

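Among the 10 rows with "-ps" in their names, which were left out of the members, 6 were at or under 1.58 FPKM in every library and Atp5k-ps2 was at 3.08 to 4.20 FPKM. Atp5l2-ps was at 7.99, 6.45 and 11.4 FPKM in control and 7.5, 8.11 and 5.69 FPKM in Ifitm3 siRNA libraries. The groups of Cox5b-ps did not overlap, with every Ifitm3 siRNA library below every control library, while those of Cox5b overlapped.

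Cox6c and Cox6c2, a gene with a longest transcript of 231 nt, shared their summed FPKM in nearly fixed parts, with Cox6c2 at 25.2, 27.6 and 27.6% in control and 26.2, 30.4 and 26.5% in Ifitm3 siRNA libraries.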
